A study of Mus musculus with 24 samples.

Results

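The genes described here are Irx3os, Irx3 and Irx5, 3 of the 55416 genes counted in gastrocnemius muscle of 24 mice, and they were found by matching their symbols to Ensembl gene identifiers. Irx3os was singled out for its measured levels in these same libraries, so its levels and folds are given as a description with no test. Irx3 and Irx5 were taken as the Iroquois genes next to it. All members were chosen with earlier results of these data known, so the FDR values of Irx3 and Irx5 are not independent support. The mice were wild type, of the strain that the labels write as C56BL6J, and the study's methods say that they were bought at 8 weeks of age. The 6 male SMC and 6 female SMC mice spent 8 weeks in the small mouse cage (SMC), a low acrylic box that restricts movement, and the 6 male sham and 6 female sham mice stayed ambulatory. The study asked how 8 weeks of this inactivity change muscle gene expression in each sex. Libraries were made from total RNA of whole muscle after ribosomal RNA depletion with a strand-specific kit. Each mouse gave 1 library.

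Iroquois genes encode homeodomain transcription factors of the TALE class, which bind DNA and pattern the embryo. The family sits in the mouse genome as a pair of clusters. Irx1, Irx2 and Irx4 form the cluster on chromosome 13, and Irx3, Irx5 and Irx6 form the cluster on chromosome 8. Irx3 and Irx5 act in limb bud patterning and in the heart, where they help set the pattern of electrical conduction and repolarization. The neighbouring gene Fto encodes an RNA demethylase, and enhancers inside its introns are known to contact Irx3 over a long distance. Irx3os is a long noncoding RNA gene on the opposite strand of Irx3, and no role of its transcript is assumed here.

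In GRCm38, the build of the annotation used for names and gene structure (GENCODE M21), Irx3 (ENSMUSG00000031734) lay at chr8:91798525-91802067 on the minus strand. Irx3os (ENSMUSG00000046413), annotated as antisense, lay at chr8:91800415-91807539 on the plus strand, and Irx5 (ENSMUSG00000031737) at chr8:92357625-92376286 on the plus strand. The Irx3 and Irx5 gene bodies were 556 kb apart, and Fto ended 130 kb from Irx3. The authors counted on a later build, GRCm39, for which no coordinates are given here. Irx3os and Irx3 shared 124 exonic bases, which made up 3.33% of the Irx3os exon bases and 4.49% of those of Irx3. All 124 lay in Irx3 coding sequence and formed exon 1 of the longer Irx3os transcripts. That stretch is shown because it is the only place where a read could belong to either gene if strand were not used in counting, and whether the authors counted by strand is not given in the sources used here. It is written on the plus strand, in lower case throughout, at chr8:91800415-91800538 in GRCm38.

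Irx3os exon 1 over Irx3: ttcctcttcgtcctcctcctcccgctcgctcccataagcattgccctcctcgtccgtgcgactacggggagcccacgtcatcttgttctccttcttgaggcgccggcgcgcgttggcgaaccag

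RefSeq places the start of Irx3os elsewhere, at base 91803336 of chromosome 8, which is 1.27 kb upstream of the annotated start of Irx3, so that the genes run away from each other from there. The 300 bases around that start, chr8:91803086-91803385 on the plus strand of GRCm38.p6, are shown as the stretch from which this form of the transcript would be read. The 50 capital letters mark the bases from the RefSeq start on.

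Irx3os promoter: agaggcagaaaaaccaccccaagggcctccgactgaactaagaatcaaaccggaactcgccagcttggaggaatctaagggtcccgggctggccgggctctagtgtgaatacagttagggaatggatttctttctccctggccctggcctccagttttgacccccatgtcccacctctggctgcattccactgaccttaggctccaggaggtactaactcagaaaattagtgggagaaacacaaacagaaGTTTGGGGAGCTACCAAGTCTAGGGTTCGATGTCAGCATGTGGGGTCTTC

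Irx3 and Irx5 are paralogues, and the longest run of identical letters between their transcripts in the same annotation was 50 bases.

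Libraries held 23026627 to 36880413 counts. Of all genes, 16408 passed the filter on low counts and were tested, all 3 members among them. Xist and Ddx3y counts matched the labelled sex in 24 of 24 libraries. The 12 fast fibre genes of a fixed marker list, the genes that define most gastrocnemius fibres, summed to between 72600 and 163000 counts per 1000000 (CPM) in each library. Male sham mouse 4 and female sham mouse 7 stood apart in slow fibre genes, with summed levels of 86.4 and 72.9 CPM against 692 to 4460 CPM in the other libraries. Female sham mouse 11 stood apart in epidermal keratin and adhesion genes, at 1160 CPM against 11.6 to 34.6 CPM elsewhere. In whole muscle, fewer cells of a type and less RNA per cell cannot be told apart.

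Irx3os was a low transcript with a higher level in every male than in any female, and in males its level was higher after SMC. Its level in male sham mice 1 to 6 was 2.73, 2.70, 3.77, 2.28, 2.66 and 4.20 CPM. In male SMC mice 13 to 18 it was 9.03, 8.13, 12.5, 7.53, 6.57 and 5.15 CPM. The 6 male SMC mice all lay above the 6 male sham mice, with a gap between the lowest SMC mouse at 5.15 CPM and the highest sham mouse at 4.20 CPM. In female sham mice 7 to 12 the level was 0.244, 0.578, 0.427, 0.693, 0.610 and 0.558 CPM. In female SMC mice 19 to 24 it was 0.0767, 0.688, 0.375, 0.283, 0.240 and 0.0903 CPM. The female groups overlapped, and each of the 12 females lay below each of the 12 males.

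In raw reads the male levels rested on 55 to 126 counts per sham library and 123 to 389 per SMC library. The female levels rested on 5 to 19 counts per sham library and 2 to 19 per SMC library, so counting error takes a larger share of the spread there. The coefficient of variation of the level was 24.6% in male sham, 30.9% in male SMC, 30.9% in female sham and 77.1% in female SMC mice. No library was at 0.

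The order of the group means was male SMC at 8.15 ± 2.52 CPM, male sham at 3.06 ± 0.751 CPM, female sham at 0.518 ± 0.16 CPM and female SMC at 0.292 ± 0.225 CPM (SD, n = 6 each). Among neighbours in this order, only the 2 female groups overlapped. The fitted log2 fold change of SMC against sham was 1.41 (SE 0.259) in males, a 2.67-fold higher level, and -0.87 (SE 0.38) in females. The male response minus the female response was 2.28 on the log2 scale (SE 0.459). Males exceeded females by 2.53 (SE 0.306) on the log2 scale among sham mice, and by 4.81 (SE 0.332) among SMC mice, or 5.79-fold and 28.1-fold. These values describe the gene by which the set was chosen and carry no support of their own. As background, 0.591% of the genes tested had 6 male SMC libraries all above the 6 male sham libraries. For male sham above female sham the share was 0.609%, and for male SMC above female SMC 1.21%.

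**Figure D1:**
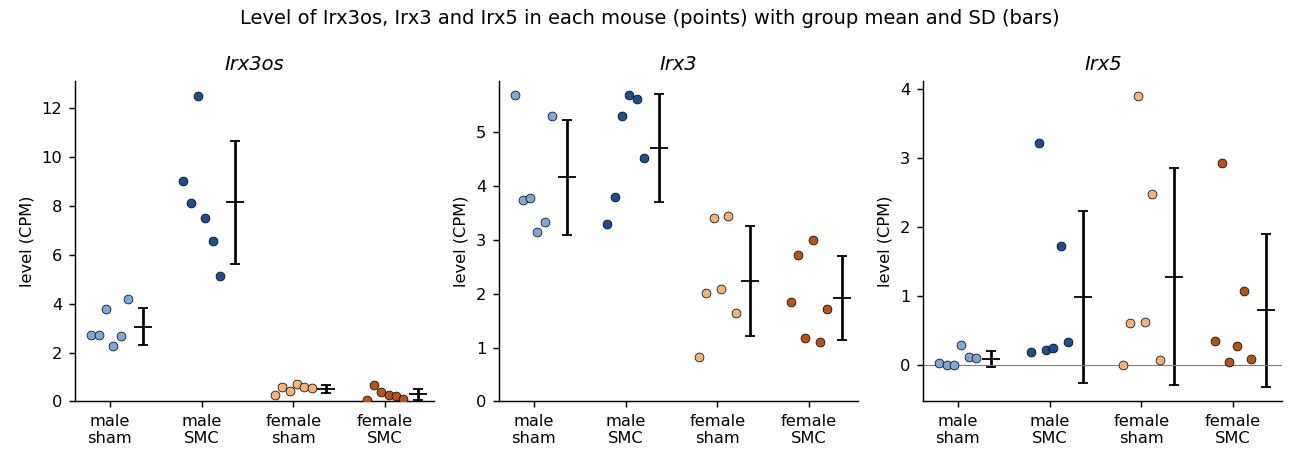
Level of Irx3os, Irx3 and Irx5 in CPM (y axis) in each of 24 mice (points), by group (x axis), with the group mean and SD as bars. Irx3os separates all males from all females and male SMC from male sham, Irx3 is higher in males with overlap among sham mice, and Irx5 is low in most mice and above 1 CPM in 6 of 24.

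Irx3, the protein-coding gene on the other strand, also stood higher in males, but its levels in SMC and sham mice of a sex overlapped. Its level in male sham mice 1 to 6 was 5.70, 3.74, 3.77, 3.15, 3.33 and 5.30 CPM. In male SMC mice 13 to 18 it was 3.30, 3.80, 5.31, 5.70, 5.61 and 4.52 CPM. These ranges overlapped almost fully, with the same highest value of 5.70 CPM. In female sham mice 7 to 12 the level was 0.829, 2.02, 3.41, 2.08, 3.45 and 1.64 CPM. In female SMC mice 19 to 24 it was 1.84, 2.72, 1.17, 2.99, 1.11 and 1.71 CPM. Females overlapped males among sham mice, where female mice 9 and 11 reached 3.41 and 3.45 CPM. Among SMC mice the sexes did not overlap, with the highest female at 2.99 CPM and the lowest male at 3.30 CPM.

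The group means of Irx3 stood in the same order as those of Irx3os, from male SMC at 4.71 ± 0.997 CPM and male sham at 4.17 ± 1.07 CPM to female sham at 2.24 ± 1.03 CPM and female SMC at 1.92 ± 0.782 CPM (SD, n = 6 each). Neighbours in this order overlapped at every step. The estimated log2 fold change of Irx3 for SMC against sham was 0.17 in males (SE 0.264, 95% interval -0.35 to 0.69, FDR 0.875, edgeR quasi-likelihood test with Benjamini-Hochberg adjustment over all genes tested, as for every FDR here). In females the log2 fold change was -0.23 (SE 0.282, interval -0.79 to 0.32, FDR 0.803). Neither passed the threshold of 0.05, in contrasts where 0% of the genes tested passed in males and 0.341% in females. The male response minus the female response was 0.40 (SE 0.386, FDR 0.996), and 0% of genes passed in that contrast with edgeR, where 841 had an unadjusted p under 0.05. DESeq2 called 1 gene there, Irx3os itself, from which nothing is read, and limma called 0.

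Irx3 was higher in males than females among SMC mice, by 1.29 on the log2 scale or 2.45-fold (SE 0.277, FDR 0.0154), in a comparison where 1.03% of the genes tested passed. Without female SMC mouse 23 this FDR was 0.0502. Among sham mice the log2 difference was 0.89 (SE 0.273, FDR 0.0911), where 1.97% of the genes passed, and DESeq2 gave the same 0.89 with an FDR of 0.0346. Whether the sex difference itself differed between sham and SMC mice is the same contrast as the difference of responses above, which did not pass. The summed level of the 8 adipocyte genes also differed by sex, at 853 to 1930 CPM in male sham, 905 to 1750 in male SMC, 1710 to 2920 in female sham and 2310 to 3160 in female SMC mice. Most of that sum was Car3, at 1210 ± 330 CPM in male sham and 2280 ± 566 CPM in female sham mice (SD, n = 6), and Car3 was the only gene of the list to pass between the sexes. Among sham mice 2 of the 8 had a log2 fold change above 0 in males, Fabp4 at 0.33 and Lep at 0.08, and the list's median was -0.58, while among SMC mice 0 of 8 were above 0 and the median was -1.7. Which cells the Car3 reads came from, and the part of fat cells in the Irx3 and Irx3os differences, were not tested.

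The ratio of Irx3os to Irx3 within a library does not depend on library size. It was 0.479, 0.721, 1, 0.724, 0.798 and 0.792 Irx3os counts per Irx3 count in male sham mice 1 to 6. In male SMC mice 13 to 18 it was 2.73, 2.14, 2.36, 1.32, 1.17 and 1.14. All 6 male SMC libraries held more Irx3os than Irx3 reads, and no sham male held more, with male sham mouse 3 at 108 counts of each. In females the ratio ran from 0.125 to 0.341 in sham and from 0.0417 to 0.320 in SMC mice, so every female library held more Irx3 reads. Per kb of exon, which allows levels of the genes to be compared, the mean ratio was 0.558 ± 0.125 in male sham, 1.34 ± 0.509 in male SMC, 0.192 ± 0.0654 in female sham and 0.121 ± 0.086 in female SMC mice (SD, n = 6 each). On this length-scaled level Irx3os exceeded Irx3 in mice 13, 14 and 15 of the male SMC group, whose ratios were 2.03, 1.58 and 1.75, and in no other library, the next being male SMC mouse 16 at 0.980. The ratio includes the counts by which Irx3os was chosen and is a description.

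**Figure D2:**
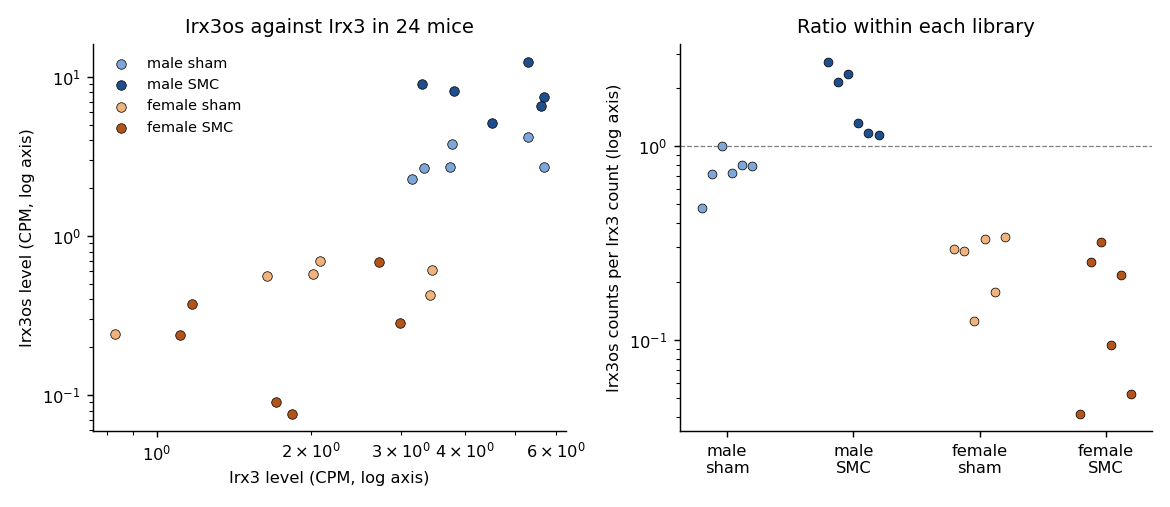
Left, Irx3os level against Irx3 level in CPM, both on log axes, 1 point per mouse. Right, Irx3os counts per Irx3 count in each library by group on a log axis, with a dashed line at equal counts. The male SMC libraries lie between 1.14 and 2.73 and the female libraries between 0.0417 and 0.341, while the groups spread along a similar range of Irx3 within each sex.

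Across the 24 libraries, the log2 CPM of Irx3os and Irx3 had a Pearson r of 0.79 and a Spearman rho of 0.82. This value carries the split between the sexes, because the males and females form separate clusters in Irx3os. Within the 12 males r was 0.34, and within the 12 females it was 0.37. Without the 2 males farthest from the median of Irx3os r fell to 0.06, and without the 2 such females it was 0.55. Within single groups of 6, r was 0.50 in male sham, -0.07 in male SMC, 0.63 in female sham and 0.23 in female SMC mice. After the mean of each group was taken off, r over the 24 libraries was 0.32. All of these points share the library, its depth and its normalization, and they are a description with no test.

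Irx5, the other Iroquois gene of the region passing the filter, was at or near the detection limit in most mice and well above it in a few. Its counts in male sham mice 1 to 6 were 1, 0, 0, 7, 3 and 3, or 0 to 0.290 CPM. In male SMC mice 13 to 18 they were 5, 93, 7, 6, 47 and 8, and mice 14 and 17 stood at 3.22 and 1.73 CPM against 0.192 to 0.335 CPM in the other 4. In female sham mice 7 to 12 the counts were 0, 19, 119, 17, 69 and 2, with mice 9 and 11 at 3.91 and 2.48 CPM. In female SMC mice 19 to 24 they were 9, 81, 1, 7, 36 and 3, with mice 20 and 23 at 2.93 and 1.08 CPM. Thus 2 mice of each group except male sham exceeded 1 CPM, and none fell between 0.620 and 1.08 CPM. The cut of 1 CPM was not set in advance and does not mark separate classes of mice. Likewise, no mouse fell between 0.345 CPM in female SMC mouse 19 and 0.610 CPM in female sham mouse 8. The 3 counts of 0 allow a level of up to 0.101 and 0.105 CPM in male sham mice 2 and 3 and 0.146 CPM in female sham mouse 7 (3 counts, counting error only).

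The SD of Irx5 exceeded its mean in every group, from 122% to 140% of the mean, against 21.2% to 45.8% for Irx3. The group means were 1.28 ± 1.57 CPM in female sham, 0.991 ± 1.24 CPM in male SMC, 0.796 ± 1.11 CPM in female SMC and 0.0892 ± 0.111 CPM in male sham mice (SD, n = 6 each), and all 4 groups overlapped with their neighbours in this order. The log2 fold change of SMC against sham was 3.54 in males (SE 1.19, FDR 0.27), with all 6 SMC mice above the sham median. It was -0.69 in females (SE 0.886, FDR 0.816), and the male response minus the female response was 4.23 (SE 1.5, FDR 0.926). Males against females gave -3.92 among sham mice (SE 1.18, FDR 0.0829) and 0.31 among SMC mice (SE 0.899, FDR 0.958). None of the 5 passed with edgeR. The difference among sham mice passed with DESeq2, at -3.87 with an FDR of 0.0306, and without the 2 libraries low in slow fibre genes, at -4.92 with an FDR of 0.0412. It also passed without female sham mouse 7 alone, with an FDR of 0.0465. Since the male sham libraries held 0 to 7 reads of Irx5, the size of a fold against that group depends on few reads.

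Over the 24 libraries Irx3os and Irx5 had r of -0.04, a value that mixes the sexes, whose Irx3os levels are separate clusters. Within the 12 males r was 0.52, and 0.71 without the 2 males farthest from the median of Irx3os. Within the 12 females it was 0.43, and 0.42 without the 2 such females. Within single groups of 6 it was -0.37 in male sham, -0.24 in male SMC, 0.47 in female sham and 0.51 in female SMC mice. After the group means were taken off r was 0.26. With Irx3, Irx5 had r of 0.13 over all libraries and 0.50 after the group means were taken off. In female sham mice r of Irx3 and Irx5 was 0.96 over 6 libraries, where mice 9 and 11 were high in both genes and mouse 7 was low in both. In male sham mice it was -0.34, in male SMC -0.05 and in female SMC 0.33. The female sham mouse low in both genes is the one low in slow fibre genes, and mouse 11 is the one high in epidermal genes, whose part in this was not tested.

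On the scale of CPM per kb of exon, the members can be set side by side. In male sham mice Irx3 stood at 1.51 ± 0.387, Irx3os at 0.82 ± 0.202 and Irx5 at 0.0285 ± 0.0354 CPM per kb. In male SMC mice Irx3os led at 2.19 ± 0.676, with Irx3 at 1.70 ± 0.361 and Irx5 at 0.317 ± 0.397 CPM per kb. In female sham mice the order was Irx3 at 0.81 ± 0.371, Irx5 at 0.41 ± 0.502 and Irx3os at 0.139 ± 0.0429 CPM per kb. In female SMC mice it was Irx3 at 0.697 ± 0.283, Irx5 at 0.255 ± 0.355 and Irx3os at 0.0784 ± 0.0604 CPM per kb (SD, n = 6 in every group). Irx3os was thus the highest of the 3 in male SMC mice by its mean and the lowest in both female groups. The Irx3os levels overlapped those of Irx3 in male SMC mice and those of Irx5 in female mice.

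The other members of the family were close to absent from this muscle. Irx1, Irx2, Irx4 and Irx6 failed the filter on low counts. Irx6, beside Irx5 on chromosome 8, had 2 counts in all 24 libraries together. Irx1, Irx2 and Irx4, of the chromosome 13 cluster, had their highest counts in female sham mouse 11, at 23, 86 and 17, and no more than 5, 5 and 1 in any other library. That mouse is the one with 1160 CPM of epidermal genes. Its Irx3os level of 0.610 CPM lay within its group, while its Irx3 and Irx5 levels were the highest and the next to highest of female sham mice. Without it, the Irx5 log2 difference between sham males and sham females was -3.65 (FDR 0.147) and that of Irx3 was 1.05 (FDR 0.0597).

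The genes around the members gave no calls. Of the 14 genes listed for the region from Chd9 to Slc6a2, 12 passed the filter, and besides the members none passed the FDR threshold in any of the 5 contrasts. In those contrasts 0% to 1.97% of all genes tested passed, so no call in so small a set is near that share. The largest log2 difference between sham sexes among them was -0.81, for Lpcat2 (SE 0.407, FDR 0.343). Fto was high and even, at 104 ± 11.4 CPM in male sham, 107 ± 8.01 in male SMC, 110 ± 12.6 in female sham and 111 ± 8.84 in female SMC mice, with a log2 fold change of 0.05 in males (SE 0.0812, FDR 0.891) and 0.02 in females (FDR 0.96). Rpgrip1l, a ciliary gene that shares its start region with Fto, had log2 fold changes of 0.20 in males (SE 0.132, FDR 0.628) and -0.19 in females (FDR 0.607). Crnde, a long noncoding RNA gene just before Irx5, stood at 0.629 ± 0.339 CPM in male sham and 0.674 ± 0.221 CPM in male SMC mice, with log2 fold changes of 0.09 (SE 0.361, FDR 0.957) in males and -0.13 in females (FDR 0.917).

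Farther out, Chd9, a chromatin remodeler, had a log2 fold change of -0.11 in males (FDR 0.684), and Rbl2, a pocket protein of cell cycle control, of -0.31 (SE 0.115, FDR 0.305). Aktip, a vesicle transport gene, had 0.05 (FDR 0.88), and the matrix protease gene Mmp2 had 0.05 (FDR 0.948). Lpcat2, which makes lysophospholipids into phospholipids, had -0.26 (SE 0.43, FDR 0.885) and Slc6a2, the noradrenaline transporter, -0.04 (SE 0.282, FDR 0.977). In males against females among SMC mice, where Irx3 passed, the log2 differences of these 9 genes ran from -0.72 for Lpcat2 (SE 0.422, FDR 0.589) to 0.38 for Slc6a2 (SE 0.288, FDR 0.715). Capns2 failed the filter, with 108 counts in female sham mouse 11 and at most 6 elsewhere. Over all 32 annotated genes within 600 kb of Irx3os, 12 passed the filter. The lowest FDR of any besides the members was 0.109, at 1.06 in sham males against sham females. It belonged to 4831440D22Rik, an antisense RNA gene chosen after its values were seen, which was at 1.01 between SMC sexes (FDR 0.232).

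**Figure D3:**
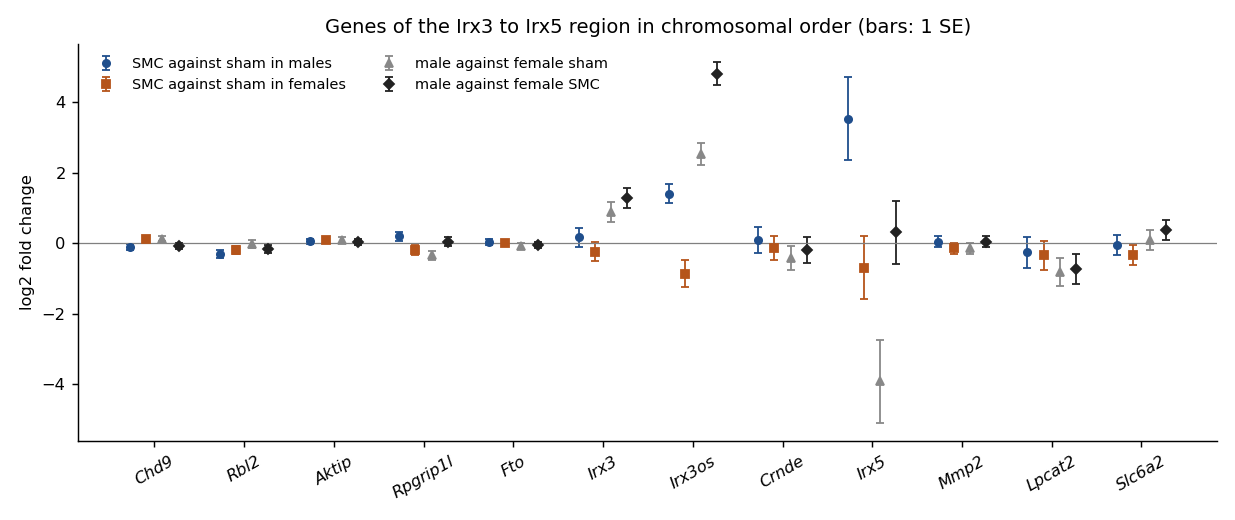
Log2 fold change (y axis) of 12 genes of the region, in chromosomal order from left to right, in 4 contrasts, with bars of 1 SE. Irx3os lies away from zero in all 4, Irx3 in the contrasts between the sexes but within 1 SE of zero for SMC against sham, and Irx5 has wide bars, with 0.31 between the SMC groups. Fto, Rpgrip1l and Crnde next to them lie between -0.42 and 0.20.

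The gene lists below, tied to the known biology of Iroquois factors, showed no calls in any contrast, where 0% to 1.97% of all genes passed. These lists are read by counts and medians, and the median over all genes tested was -0.0044 in males and -0.011 in females for SMC against sham. Of 45 genes of limb and positional identity, mostly Hox genes and factors that mark a hindlimb, 39 were tested and 0 passed in each contrast, with medians of 0.10 in males and 0.11 in females for SMC against sham. Those with the smallest FDR in males were Hoxc6 at 0.47 (SE 0.129, FDR 0.175) and Hoxc8 at 0.43 (SE 0.132, FDR 0.211). Of 15 hedgehog pathway genes, which pattern the limb alongside Irx3 and Irx5, 13 were tested and 0 passed in each contrast. Their summed level was 110 to 123 CPM in male sham and 122 to 129 CPM in male SMC mice. Of 8 genes of thermogenic fat, a program studied in connection with the Fto region, 7 were tested and 0 passed. The defining gene Ucp1 failed the filter. Of 7 heart genes linked to Irx3 or Irx5, 4 were tested and 0 passed, the connexin gene Gja5 reaching 0.38 in females (SE 0.17, FDR 0.345).

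Cell type markers gave the setting of these values. For SMC against sham in males, 0 genes of any marker list passed, as did 0 of all 16408 genes with edgeR, where 1805 had an unadjusted p under 0.05, DESeq2 called 133 and limma 93. Smooth muscle and pericyte genes summed to 730 to 854 CPM in male sham and 899 to 973 CPM in male SMC mice, without overlap. Most of that sum was Abcc9, with means of 354 and 394 CPM, and Rgs5, with means of 291 and 295 CPM. Their log2 fold changes in males were 0.16 (SE 0.0893, FDR 0.542) and 0.02 (SE 0.124, FDR 0.977). In females the same sum was 708 to 863 CPM in sham and 867 to 953 CPM in SMC mice, also without overlap, while Irx3os overlapped and its fitted change was below 0. The contractile genes Myh11 at 0.77 (SE 0.161, FDR 0.0901) and Acta2 at 0.85 (SE 0.198, FDR 0.0966) had the smallest FDR of that list in males and did not pass, and Cnn1 had a larger fold, at 1.53 (SE 0.427, FDR 0.179). The part of these cells in the Irx3os level was not tested. Summed slow fibre genes ran from 86.4 to 2340 CPM in male sham and from 692 to 3170 CPM in male SMC mice. Without the 2 libraries low in slow fibre genes the Irx3os log2 fold change was 1.33 in males and -0.99 in females.

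Between the sexes, single genes of the lists passed, where 1.97% of all genes tested passed among sham and 1.03% among SMC mice. Car3, a carbonic anhydrase gene of the adipocyte list, was lower in males among sham mice (log2 fold change -0.91, SE 0.193, FDR 0.0138). Among SMC mice its log2 fold change was -1.09 (FDR 0.0026). In male sham mice Car3 stood at 1210 CPM, while Adipoq and Plin1 of the same list stood at 2.99 and 5.22 CPM. Musk, the kinase that organises the neuromuscular junction, was higher in males at 1.18 among sham mice (SE 0.212, FDR 0.00317) and 0.90 among SMC mice (FDR 0.0332). In the satellite cell list, Myod1 was higher at 0.60 (SE 0.16, FDR 0.0487) and Megf10 lower at -0.85 (SE 0.16, FDR 0.00484) in sham males, and 0 passed among SMC mice. The fibroblast, tendon, endothelial, Schwann, macrophage, slow fibre, fast fibre, and smooth muscle and pericyte lists had 0 calls in all 5 contrasts. In those contrasts 0% to 1.97% of all genes tested passed, so 0 calls in lists this small is near that share. Of 10 epidermal genes 4 were tested, and the keratin gene Krt10 passed in 2 contrasts with female sham mice (FDR 0.0496 against female SMC and 0.0156 against male sham mice), where its highest count was 8180, in a group that includes mouse 11.

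By Pearson r with Irx3os of log2 CPM over 24 libraries, the 10 highest of the 16408 genes ran from 0.88 to 0.91, and 4 of them were on chromosome Y, namely Kdm5d, Eif2s3y, Ddx3y and Uty. The other 6 were Cdk19, a kinase of the Mediator complex, Amd1, which makes a polyamine precursor, the transporter gene Slc15a5, the actin-related gene Actr3b, the complement gene C7 and the calcium channel subunit gene Cacna2d4. Irx3os separates the sexes, so genes chosen for likeness to it differ between them by that choice, and all 10 had higher male means among sham mice. These values are a description. With SMC in males their log2 fold changes ran from -0.34 to 0.91, and 5 of 10 were above 0. The 4 Y-linked genes all had values below 0, Ddx3y with 76.5 ± 7.30 CPM in male sham and 60.5 ± 5.72 CPM in male SMC mice (log2 fold change -0.34). Cacna2d4 stood at 5.05 ± 1.61 in male sham and 9.49 ± 1.32 CPM in male SMC mice (log2 fold change 0.91).

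Most opposite to Irx3os were Gm15337, Eif2s3x, Xist, Kdm6a and Kdm5c, with r from -0.93 to -0.89, and 4 of these are X-linked genes known to be expressed from the inactive X or to escape its silencing. After the group means were taken off, none of the 10 most alike kept a place near the top, and the best was Cacna2d4, with r of 0.17 at rank 3833. Gm15337 kept r of -0.51, and within the 12 males it had r of -0.87, at 1.60 ± 0.406 CPM in male sham and 0.96 ± 0.254 CPM in male SMC mice (log2 fold change -0.74). Irx3 was at rank 37 by likeness to Irx3os and Irx5 at rank 9236.

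**Figure D4:**
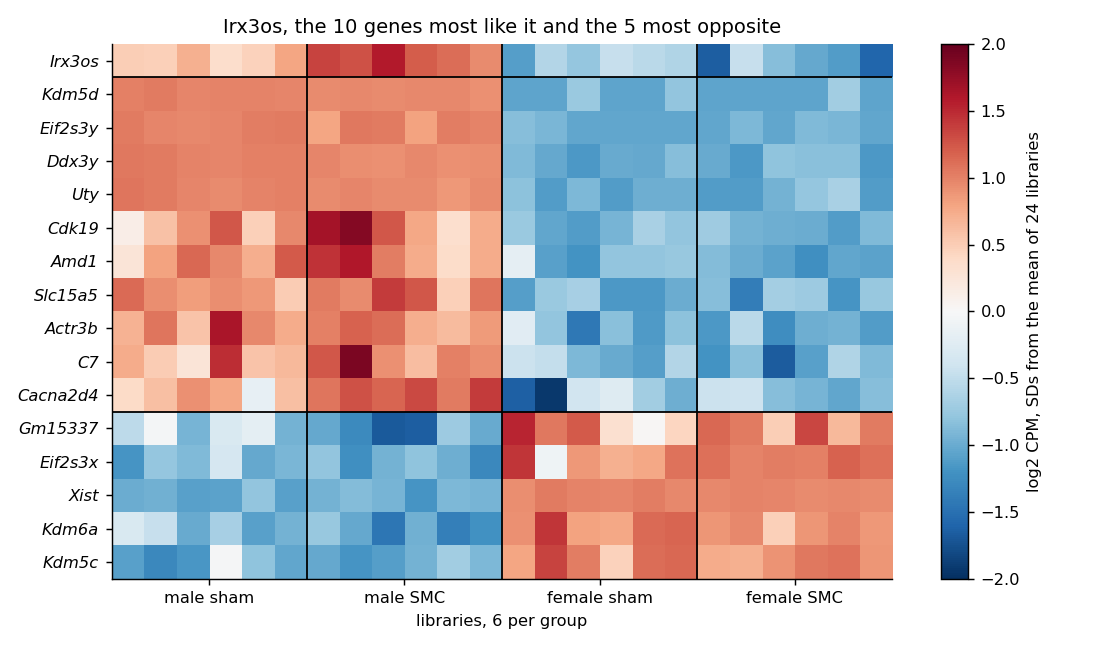
Log2 CPM of Irx3os (top row), the 10 genes most like it and the 5 most opposite (lower blocks), in 24 libraries (columns) grouped by sex and treatment, as SDs from the mean of each gene over all libraries. The rows split by sex, and Irx3os is darker in male SMC than in male sham libraries, which the Y-linked rows are not.

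Irx3 was most like Cd276 (r 0.83), Mgst1 (0.81), Lpcat3 (0.80), Cacna2d4 (0.80) and Eva1b (0.79). Cd276, an immune checkpoint gene, and Mgst1, a microsomal glutathione transferase, had log2 fold changes of 0.77 (SE 0.167) and 1.19 (SE 0.203) in males against females among sham mice, which are a description, since genes chosen for likeness to Irx3 share its split by sex. Lpcat3, a phospholipid acyltransferase gene, and Eva1b did not pass in any contrast, and they kept r of 0.73 and 0.79 with Irx3, at ranks 39 and 8, after the group means were taken off. Irx3os was at rank 7 by likeness to Irx3 and at rank 3389 after the group means were taken off.

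Irx5 had its closest companions among genes that varied from mouse to mouse within the groups. The 5 highest were Adra2a (r 0.81), Gm11400 (0.79), Engase (0.78), Peg3 (0.77) and Gm45828 (0.77), and after the group means were taken off they stood at ranks 2, 22, 4, 3 and 1 with r from 0.72 to 0.87. Adra2a, an adrenergic receptor gene, was at 1.28 and 1.25 CPM in male SMC mice 14 and 17, 1.18 and 1.11 CPM in female sham mice 9 and 11, and 1.16 and 1.11 CPM in female SMC mice 20 and 23, the mice with Irx5 above 1 CPM. In the other 18 libraries Adra2a lay between 0.372 and 1.05 CPM. Peg3, a paternally expressed imprinted gene, was at 83.1 CPM in female sham mouse 9 and 67.6 CPM in female SMC mouse 20, but also at 65.2 CPM in male sham mouse 4, where Irx5 had 7 counts. None of the 5 passed in any contrast. They were picked by r over these same libraries, so the values are a description.

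**Figure D5:**
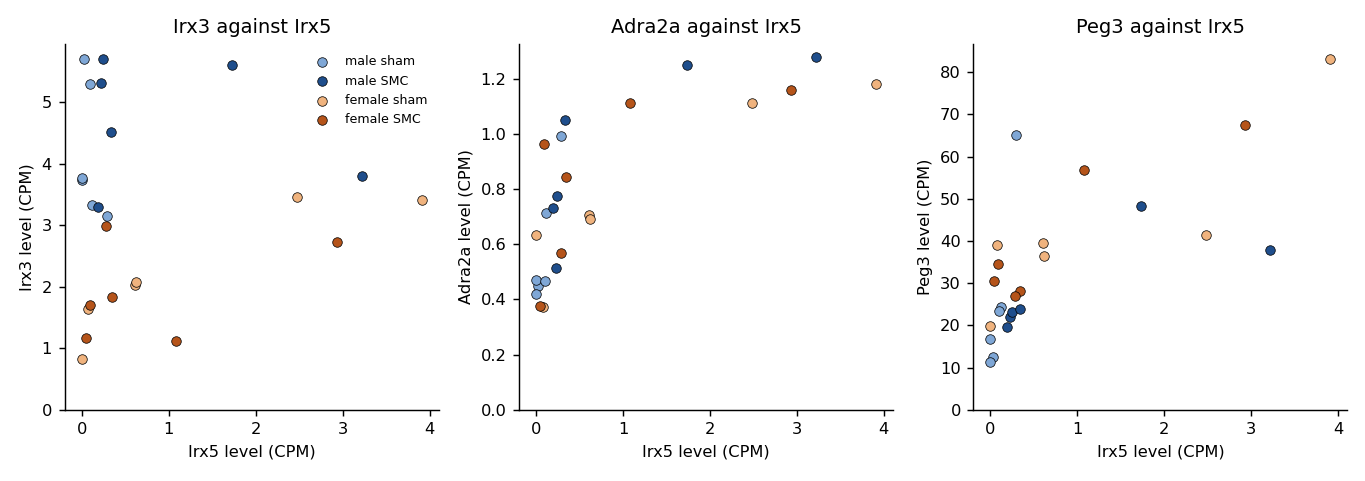
Levels of Irx3, Adra2a and Peg3 (y axes, CPM) against the level of Irx5 (x axis, CPM), 1 point per mouse, coloured by group. The 6 mice with Irx5 above 1 CPM hold the highest Adra2a levels, 1.11 to 1.28 CPM, while Irx3 spreads over its whole male range at Irx5 near 0.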

How the data were processed

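The authors deposited raw counts per Ensembl gene, 1 column per mouse, with no normalization. The submitters' processing notes name cutadapt 1.16, STAR 2.7.9a, featureCounts 1.6, DESeq2 1.34.0 and the build GRCm39, and the annotation release and strand setting are not given in the sources used here. Groups came from the labels. Genes were kept by filterByExpr over the 4 groups, scaled by TMM and fitted with 1 mean per group in edgeR 4.0.16 (R 4.3.3, quasi-likelihood, two-sided, FDR under 0.05). CPM use TMM library sizes, and log2 CPM a prior count of 2. Intervals are normal, at 95%. Symbols were matched for 52083 of 55416 genes, and exon lengths came from GENCODE M21. Sequences are from GENCODE M21 and RefSeq. Alternatives used DESeq2 1.42.0, limma 3.58.1, other filters and left-out libraries. The fit was tested on simulated data. Depth, 23026627 to 36880413 counts per library, gives low genes few reads. The p-values set a group difference against the estimated spread between mice of a group, counting error included.

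The members and lists were chosen with earlier results of these data known, and the epidermis list after these counts were seen. Named are the members, the other Iroquois and neighbouring genes, up to 4 genes of each list by FDR, and the genes most like each member by r (10 highest and 5 lowest for Irx3os, 5 highest for Irx3 and Irx5). Some genes of the adipocyte and the smooth muscle and pericyte lists are also named for their level or direction.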

Additional observations from a re-analysis of the deposited data

Results flagged for a closer look

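Irx5 in female SMC mouse 20 stood at 2.93 CPM, from 81 counts, against 0.0469 to 1.08 CPM in the other 5 mice of its group, a gap of 0.643 of the range of the group. Of 16 groups of 6 values examined in this way (the 3 members and the Irx3os to Irx3 ratio in 4 groups each), this was the only value past Dixon's 95% value. Chance alone marks about 1 in 20 where values are normal. The Irx5 levels were skewed and the ratio reuses the Irx3os and Irx3 counts, so the rate by chance is not known here. The same mouse had the highest Irx3os level of its group, at 0.688 CPM, and an Irx3 level of 2.72 CPM. Without it the Irx5 log2 fold change of SMC against sham in females was -1.75 in place of -0.69, and that of Irx3os was -1.34 in place of -0.87.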

How the results depend on the processing

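No paired analysis was run because the labels record no pairing of mice, and the replicate numbers only run on across the 4 groups. The study's methods say that some experiments kept sham and SMC mice in pairs. The direction of each Irx3os log2 fold change was kept under the other settings that could be fitted, 7 for SMC against sham in each sex and 6 for the other contrasts, and with each library left out in turn, and at least 10 counts in every library left Irx3os and Irx5 untested. Since Irx3os was chosen by its levels in these same libraries, a kept direction is a description and no support. With single libraries left out, the Irx3os values ran from 1.25 to 1.52 for SMC in males, -1.34 to -0.65 in females, 2.06 to 2.76 for their difference, 2.42 to 2.63 between sham sexes and 4.60 to 5.29 between SMC sexes. For Irx3 they ran from 0.09 to 0.28, -0.39 to -0.07, 0.24 to 0.56, 0.74 to 1.05 and 1.16 to 1.45, and its FDR between SMC sexes passed in 23 of 24, the exception being without female SMC mouse 23 (0.0502). For Irx5 they ran from 2.68 to 4.28, -1.75 to 0.06, 3.37 to 5.29, -4.67 to -3.16 and -0.55 to 1.37, so the sign turned in females without female sham mouse 9 and between SMC sexes without male SMC mouse 14. Between sham sexes, DESeq2 moved Irx3 past the threshold at 0.89, and Irx5 at -3.87, and leaving out male sham mouse 4 and female sham mouse 7 moved Irx5 past it at -4.92. The cause was not tested.

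Counts of genes called depended on the tool and on single libraries. For SMC in males edgeR called 0, DESeq2 133 and limma voomWithQualityWeights 93, and single omissions gave 0 to 78, the highest without male sham mouse 5. In females edgeR called 56, DESeq2 268, edgeR with DESeq2 size factors 37, the 12 female libraries alone 14, limma 16, the fit without the 2 low slow fibre libraries 155 and the fit without the high epidermal library, chosen after seeing the data, 28. Single omissions gave 0, without female SMC mouse 22, to 147, without female sham mouse 9. For the difference of responses DESeq2 called 1 against 0, and single omissions gave 0 to 1, in each case Irx3os. That gene was chosen by its levels in these same libraries, so nothing is read from these calls. Between sham sexes DESeq2 called 575 and the fit without the 2 libraries 511 against 324, with single omissions at 187 to 487. Between SMC sexes DESeq2 called 322, limma 546 and the fit without the 2 libraries 289 against 169, with single omissions at 115 to 221.

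The correlation of Irx3os and Irx3 of 0.79 moved to 0.32 for deviations from group means, 0.50 within male sham, 0.23 within female SMC and -0.07 within male SMC mice. That of Irx3os and Irx5 of -0.04 moved to 0.47 within female sham and 0.51 within female SMC mice. Depth limits Irx3os in females and Irx5 in most mice, where libraries held 19 reads or fewer.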
